A study of Mus musculus with 4 samples.

Results

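The protein-coding genes of mouse chromosome 19 were followed as a group, in order of their start position, in 2 mouse endometrial cancer cell lines. Of 712 coding genes of this chromosome in the deposited table, 410 reached 1 TPM (a length-corrected share of a library's RNA, scaled to the same total in each library) in at least 2 of 4 libraries and were kept. They are 410 of 11856 coding genes that met this rule genome-wide. The line MSH2KO21B and the line MECPK were each run as replicates 1 and 2, from total RNA of uterine cancer cells. The labels give no genotype, treatment, parentage or passage for either line, so both names are used only as names. The labels also do not say whether replicates are separate cultures, so p-values reflect only the spread between these libraries, which may be technical. TPM gives no read depth, so the depth behind each value is unknown. The members were chosen by level in the same libraries that are compared, and the chromosome was picked with earlier results of these data known. Counts and medians over the members are therefore descriptions, and no test of the chromosome as a whole is given; with 2 libraries a line, permuting libraries cannot give a two-sided p below 0.333 in any case.

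Chromosome 19 is the smallest mouse autosome. Its genes have no common function: it holds the tumour suppressor gene Men1, the kinase gene Jak2, fatty acid desaturase genes, ferritin heavy chain and many genes of transcription, splicing and DNA replication. The RNA level of a gene depends on the copies of the gene, on its transcription and on RNA stability. DNA copy number was not measured here, and in bulk RNA fewer cells of a type and less RNA per cell cannot be told apart.

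Most members had lower RNA in MSH2KO21B than in MECPK, spread along the whole chromosome. Drap1, a subunit of a transcription repressor complex, lies head to head with AI837181, and both were lower in MSH2KO21B. The sequence between their starts is shown because it lies upstream of both. The 250 bases before the RefSeq start are shown for Col17a1 and Ankrd1, the members with the largest positive and negative differences. All come from RefSeq windows on GRCm38.p6 and are written 5′ to 3′ on the minus strand, the strand of Drap1, Col17a1 and Ankrd1. AI837181 lies on the plus strand. Capitals mark GGAATG, the element bound by TEAD factors, and the TATA-type runs TATAAA and TATATA, searched on both strands.
Drap1 to AI837181, chr19:5424980-5425143, minus strand: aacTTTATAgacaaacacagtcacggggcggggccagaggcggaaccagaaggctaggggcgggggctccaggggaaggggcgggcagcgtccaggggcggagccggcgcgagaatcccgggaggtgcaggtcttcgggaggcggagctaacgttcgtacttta
Col17a1, chr19:47692043-47692292, minus strand: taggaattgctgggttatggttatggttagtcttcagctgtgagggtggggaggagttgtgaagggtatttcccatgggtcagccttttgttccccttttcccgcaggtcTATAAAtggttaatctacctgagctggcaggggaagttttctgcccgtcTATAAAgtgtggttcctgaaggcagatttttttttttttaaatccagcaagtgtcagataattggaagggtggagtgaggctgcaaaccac
Ankrd1, chr19:36119845-36120094, minus strand: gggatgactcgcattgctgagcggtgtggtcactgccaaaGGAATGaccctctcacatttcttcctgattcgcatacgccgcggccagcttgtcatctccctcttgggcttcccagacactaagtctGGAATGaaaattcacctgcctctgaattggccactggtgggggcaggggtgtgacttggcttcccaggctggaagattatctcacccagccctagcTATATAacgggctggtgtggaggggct

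The Ankrd1 window held 2 GGAATG elements and a TATATA run beginning 27 bases before the RefSeq start. For Ankrd1 and Col17a1 the RefSeq start differs from that of the GENCODE annotation used for gene positions. The Ankrd1 window lies wholly within the gene coordinates given below, and the Col17a1 window partly overlaps its gene. The Col17a1 window held 2 TATAAA runs and no GGAATG. The 164 bases between Drap1 and AI837181 held 15 CG pairs and 1 TATAAA run, on the other strand. Col17a1 had 2 CG pairs in its longer window and Ankrd1 7. Of 32851 promoter windows of 250 bases in the mouse table, 12.6% held GGAATG, 12.4% TATAAA and 5.25% TATATA. In the 439 windows of members, these shares were 10%, 7.29% and 2.05%. Entries were found for 331 of 410 members.

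Differences below are on the log2(TPM + 1) scale, MSH2KO21B minus MECPK, relative to the median of all coding genes tested, which was 0.19 higher in MSH2KO21B as deposited. The median member of chromosome 19 was at -0.89 on this scale, which corresponds to a ratio of 0.538 on the TPM + 1 scale. The quartiles were -1.38 and -0.30. Below 0 were 342 of 410 members (83.4%), and 324 were below 0 also without setting values relative to the median. The limma test, run over all 11921 genes with Benjamini-Hochberg adjustment and a threshold of 0.05, called 314 members lower and 54 higher in MSH2KO21B, and 42 were not called (89.8% called). Of these calls, 19 of the lower and 22 of the higher are genes that reached 1 TPM in 1 line alone, whose direction the level rule fixed. Genome-wide it called 74.7% of genes, 37.7% lower and 37.0% higher. On chromosome 19 the shares were 76.6% lower and 13.2% higher. On the values as deposited it called 286 members lower and 64 higher, where it called 76.2% of all genes, 29.7% lower and 46.6% higher. With no level rule, over 570 chromosome 19 genes, the median was -0.39, and the medians of 5 Mb intervals lay between -0.76 and -0.06. In TPM as deposited, both MSH2KO21B libraries lay below both MECPK libraries for 309 members (75.4%), against 35.2% of all genes tested. They lay above both for 77 members (18.8%), against 53.7% of all genes. In either direction the lines did not overlap for 94.1% of members and 88.9% of all genes.

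The chromosome 19 median was similar in every pairing of libraries. MSH2KO21B replicate 1 had a median of -0.92 against MECPK replicate 1 and -0.88 against MECPK replicate 2. MSH2KO21B replicate 2 had -0.91 against MECPK replicate 1 and -0.89 against MECPK replicate 2. Between replicates of one line the chromosome 19 median differed by -0.0023 in MSH2KO21B and by -0.0052 in MECPK. The difference between lines was thus far larger than the spread between libraries of a line. Chromosome 19 coding genes together held 2.65% and 2.63% of gene TPM in the MSH2KO21B libraries, against 5.27% and 5.27% in the MECPK libraries. Fth1 is a large part of that sum in MECPK. Without it the shares were 2.52% and 2.49% in MSH2KO21B, against 4.60% and 4.49% in MECPK.

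**Figure D1:**
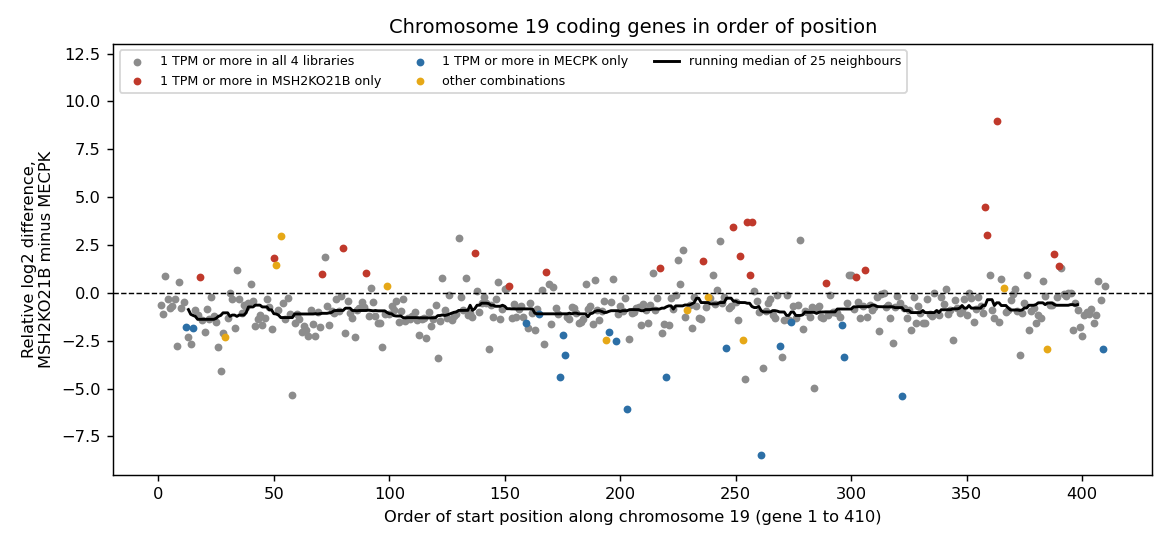
Relative log2 difference of each of the 410 members, MSH2KO21B minus MECPK, in order of start position along chromosome 19. Points are genes, coloured by the libraries in which they reached 1 TPM. The black line is the running median of 25 neighbours, which stays below 0 along its whole length. It needs 25 genes, so it is not drawn at either end of the chromosome.

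The difference ran from one end of the chromosome to the other. The first member, the helicase gene Ighmbp2 (chr19:3259076-3283017), was at -0.64 (SE 0.08, limma adjusted p = 0.00146). Cut into 13 intervals of 5 Mb by start position, every interval had a median below 0. The lowest over all members was -1.24, from 35 to 40 Mb, where all 18 members were below 0. Ankrd1, Hhex and Slc35g1 among them reached 1 TPM in MECPK alone, so the level rule fixed their direction. Among the 15 members there at 1 TPM or more in all 4 libraries, the median was -0.996. Over such members the lowest interval median was -1.07, from 5 to 10 Mb. The gene-dense interval from 5 to 10 Mb held 122 members with a median of -1.03. From 15 to 20 Mb all 10 members were below 0, with a median of -0.98. Gcnt1 is a member there through MECPK alone, and the 9 at 1 TPM in all 4 libraries had a median of -0.93.

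The intervals nearest to 0 lay between 25 and 35 Mb. From 25 to 30 Mb the 19 members had a median of -0.28 with quartiles of -0.82 and 0.68. From 30 to 35 Mb the 16 members had a median of -0.47 with quartiles of -0.92 and 1.18. These are also the intervals with the widest upper spread, and they hold Kank1, Vldlr, Il33, Papss2, Acta2 and Ifit2, all higher in MSH2KO21B. Papss2, Acta2 and Ifit2 reached 1 TPM in MSH2KO21B alone, so the level rule fixed their direction. Among members at 1 TPM or more in all 4 libraries, the medians there were -0.42 (16 genes) and -0.51 (9 genes). As deposited, without the relative scale, the interval from 25 to 30 Mb was at -0.08. The last interval, from 60 Mb, had a median of -1.06 over 10 members.

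The longest unbroken run of members below 0 had 34 genes, from the aspartate aminotransferase gene Got1 (start 43499752) to the NF-kappaB subunit gene Nfkb2 (start 46304320). This run depends on the relative scale. As deposited, 4 genes within it were above 0, and the longest run below 0 had 23 genes, from Zfpl1 (start 6080762) to Dnajc4 (start 6987911). On the relative scale the longest run above 0 had 4 genes, Acta2, Lipa, Ifit2 and Pank1. Acta2, Lipa and Ifit2 reached 1 TPM in MSH2KO21B alone, so the level rule fixed their direction. Pank1 was not called (0.12, limma adjusted p = 0.193). Of 409 neighbouring pairs, 310 had the same sign (75.8%), against 57.8% of 11405 pairs on the other autosomes and the X. Measured from each chromosome's own median, 54.5% of chromosome 19 pairs lay on one side, against 54.4% elsewhere. Once the common level was subtracted, neighbours on chromosome 19 were thus alike about as often as neighbours elsewhere.

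Pairs of genes that start within 1000 bases of each other on opposite strands numbered 29, and in 28 both members were below 0 (96.6%). For all neighbours on chromosome 19 the share was 71.4%, and it was 31.8% for 829 such pairs on the other autosomes and the X. As deposited, both were below 0 in 25 of the 29. Drap1 had 144 and 143 TPM in MSH2KO21B, against 527 and 511 TPM in MECPK, and AI837181 had 23.0 and 21.9 TPM in MSH2KO21B, against 63.9 and 69.9 TPM in MECPK. Their differences were -2.04 and -1.73. Zfpl1, a Golgi protein gene, and the cohesin regulator gene Cdca5 differed by -1.08 and -0.71. The exception on the relative scale was Nudt22, which was higher in MSH2KO21B (0.76), beside Trpt1 (-0.91), a gene of tRNA splicing. In 13 of the 29 pairs the annotated starts overlap, and reads in the overlap could be shared if the libraries were not stranded. Genes named below outside the rule given with the methods were picked once their values were known.

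**Figure D2:**
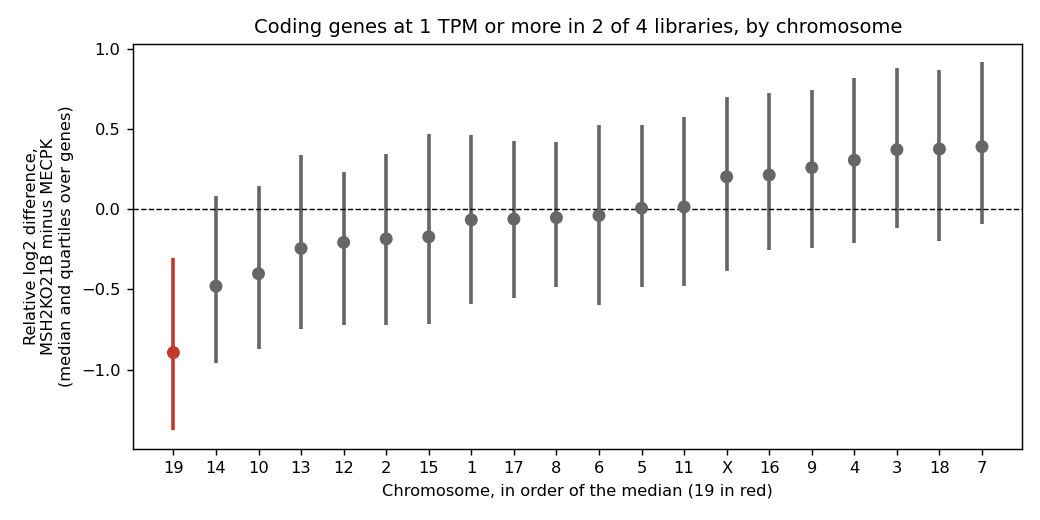
Median and quartiles of the relative log2 difference, MSH2KO21B minus MECPK, over coding genes tested on each autosome and the X chromosome, in order of the median. Chromosome 19, in red, is at -0.89, and the others lie between -0.48 and 0.39.

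The other 19 chromosomes had medians between -0.48 (chromosome 14) and 0.39 (chromosome 7). Chromosome 14 and chromosome 10 (-0.40) were the nearest to chromosome 19. Across the 4 pairings of libraries, chromosome 14 lay between -0.50 and -0.45 and chromosome 10 between -0.41 and -0.38, so neither came near the range of chromosome 19. Below 0 were 83.4% of genes on chromosome 19, against 29.2% to 72.9% on the others. Between replicates, chromosome medians differed by -0.01 to 0.02 in MSH2KO21B and by -0.02 to 0.02 in MECPK. The order of chromosomes is a description, and no test of it is given.

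**Figure D3:**
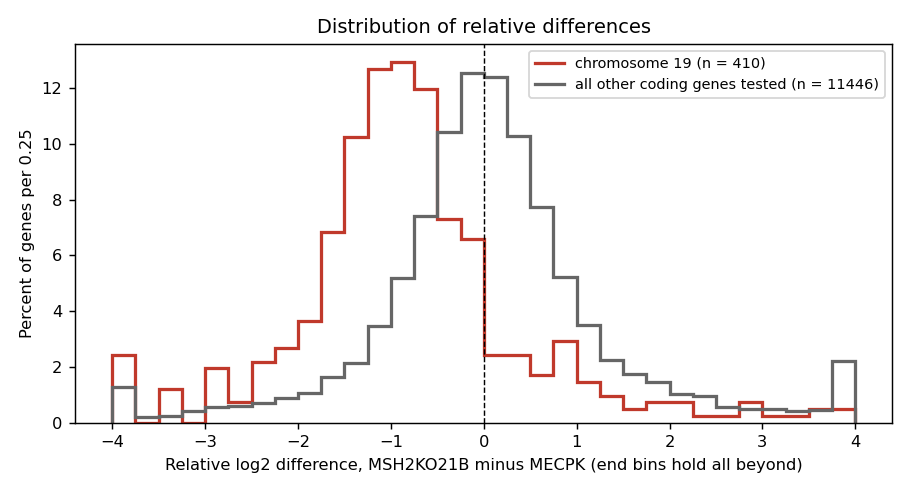
Distribution of the relative log2 difference, MSH2KO21B minus MECPK, in bins of 0.25, for the 410 members (red) and the 11446 other coding genes tested (grey), as percent of genes. The red outline has about the same width as the grey one and its peak lies near -1.

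Their interquartile range was 1.08, against 1.13 for all other coding genes, so the spread was similar and the centre differed. Between -1.5 and -0.5 lay 47.8% of members and 18.2% of other coding genes. Above 0.5 lay 11.7% of members and 28.5% of other genes. Members were also split into 3 groups by mean TPM. The 137 least abundant, up to 15.9 TPM, had a median of -0.51 and an interquartile range of 1.91. The 136 in the middle had -0.94 and 0.80, and the 137 most abundant, from 48.8 TPM, had -1.02 and 0.75. These groups include the genes that reached 1 TPM in 1 line alone, which had to differ. The split was not repeated without them, so no conclusion on abundance is drawn. The median was -0.89 for 202 genes on the plus strand and -0.90 for 208 on the minus strand. By gene length it was -1.08 for the 137 shortest genes, -0.86 for the middle 136 and -0.79 for the 137 longest.

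Of the 410 members, 358 reached 1 TPM in all 4 libraries, and their median was -0.91, with 290 called lower and 30 higher. A further 23 reached it in both MSH2KO21B libraries and in neither MECPK library, 19 in both MECPK libraries and in neither MSH2KO21B library, and 10 in other combinations. The genes that reached it in 1 line alone had to differ, so below their values are given with no test, and the calls counted for each list are those of members at 1 TPM or more in all 4 libraries. Just inside the rule was Lrrn4cl, with 1.14 and 1.18 TPM in MSH2KO21B, against 0.30 and 0.72 TPM in MECPK. Just outside were Nkx2-3, with 0 and 0.05 TPM in MSH2KO21B and 0.99 and 0.997 TPM in MECPK, and Pdzd7, with 0.89 and 1.22 TPM in MSH2KO21B and 0.42 and 0.42 TPM in MECPK. The 302 coding genes left out include 142 listed at 0 in all 4 libraries and all 66 olfactory receptor genes in the table.

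**Figure D4:**
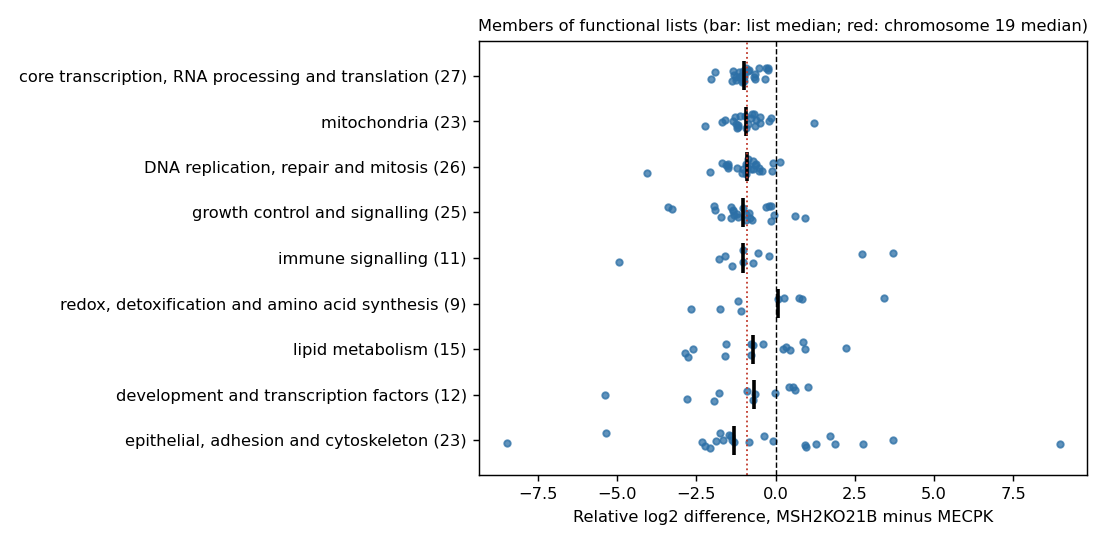
Relative log2 difference, MSH2KO21B minus MECPK, of the members of 9 functional lists, with the number of members in brackets. Each point is a gene, black bars are list medians and the dotted red line is the chromosome 19 median of -0.89. The lists at the top are narrow and lie almost wholly below 0, and those at the bottom spread to both sides. Genes that reached 1 TPM in 1 line alone are included.

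Genes of core transcription, RNA processing and translation were all lower in MSH2KO21B. Of 27 such members, each at 1 TPM or more in all 4 libraries, 27 were called lower, and all 27 stayed below 0 under each other scaling. Of these, 23 were called lower as deposited, 27 with quantile normalization and 26 with median-ratio scaling. The median was -0.996 and the interquartile range 0.53, the narrowest of the 9 lists. For every list the genome-wide background is 37.7% of all genes called lower and 37.0% called higher, with a median of 0 over coding genes. This background covers every gene tested, also those that reached 1 TPM in 1 line alone. It is therefore a wider set than the list members at 1 TPM in all 4 libraries. The lists are parts of chromosome 19, so the nearer background is the chromosome itself. Of its 358 members at 1 TPM in all 4 libraries, 290 were called lower and 30 higher, with a median of -0.91. No list was tested against it. Eef1g, a subunit of the elongation factor that brings tRNA to the ribosome, had 625 and 609 TPM in MSH2KO21B, against 2077 and 1997 TPM in MECPK. Its difference was -1.92 (SE 0.05, limma adjusted p = 1.8e-05). Eif3a, a scaffold subunit of an initiation factor, had 124 and 126 TPM in MSH2KO21B, against 201 and 197 TPM in MECPK (-0.87). Cpsf7, which acts in 3′ end cleavage of RNA, differed by -1.39. The splicing factor gene Sf3b2 had 99.7 and 103 TPM in MSH2KO21B, against 188 and 194 TPM in MECPK (-1.10). The members nearest to 0 were Cstf2t (-0.22), Taf5 (-0.23), Btaf1 (-0.31) and the RNA polymerase II subunit gene Polr2g (-0.32).

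DNA replication, repair and mitosis genes followed. Of 25 members at 1 TPM in all 4 libraries, 22 were called lower and 1 higher, with a median of -0.90. Pold4, the smallest subunit of DNA polymerase delta, had 5.54 and 6.12 TPM in MSH2KO21B, against 102 and 95.4 TPM in MECPK (-4.06, SE 0.08, limma adjusted p = 1.0e-05). The libraries of the lines were far apart. Rnaseh2c, a subunit of the enzyme that removes ribonucleotides from DNA, had 50.7 and 49.8 TPM in MSH2KO21B, against 147 and 139 TPM in MECPK (-1.68). Smc3, a ring subunit of cohesin, was closer, with 49.5 and 49.3 TPM in MSH2KO21B, against 60.7 and 63.4 TPM in MECPK (-0.52, adjusted p = 8.1e-04 by limma). Fam111a reached 1 TPM in MECPK alone (0.02 and 0 TPM in MSH2KO21B, against 2.78 and 2.55 TPM in MECPK). The members of the list not called lower were few. Incenp, a subunit of the chromosomal passenger complex, was higher (0.15, limma adjusted p = 0.0338), a call lost without MECPK replicate 2 or either MSH2KO21B replicate. The kinesin gene Kif11 (-0.11) and the cytokinesis gene Cep55 (-0.08) were not called, while the mitotic kinesin gene Kif20b (-0.43) was called lower.

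Nuclear genes of mitochondrial proteins were lower in 20 of 23 members and higher in 1, with a median of -0.92. Prdx5, a peroxide-removing enzyme, had 107 and 107 TPM in MSH2KO21B, against 446 and 437 TPM in MECPK (-2.22, SE 0.04, limma adjusted p = 1.0e-05). The mitochondrial ribosome gene Mrpl11 differed by -1.70. Neither had lines that overlapped. The exception was Pcx, which encodes pyruvate carboxylase, with 5.97 and 6.02 TPM in MSH2KO21B, against 1.56 and 1.75 TPM in MECPK (1.20).

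Growth control and signalling genes were lower in 20 of 25 members and higher in 2, with a median of -1.02. Men1, which encodes the chromatin regulator menin, had 45.4 and 37.6 TPM in MSH2KO21B, against 94.5 and 91.6 TPM in MECPK (-1.35, SE 0.10, limma adjusted p = 3.4e-04). It was lower in each MSH2KO21B library than in either MECPK library. Larger differences belonged to the growth factor gene Vegfb (-3.41), the ERK phosphatase gene Dusp5 (-3.26) and the AP-1 subunit gene Fosl1 (-1.96). Dusp5 had 9.98 and 11.1 TPM in MSH2KO21B, against 86.0 and 105 TPM in MECPK. Ppp1ca, a catalytic subunit of protein phosphatase 1, had 159 and 159 TPM in MSH2KO21B, against 328 and 323 TPM in MECPK (-1.23). Called higher were Pdcd4 (0.94), an inhibitor of translation, and Grk5 (0.62), a kinase of G protein-coupled receptors. Not all higher calls of this list held without MSH2KO21B replicate 1.

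Immune signalling genes were lower in 7 of 8 members at 1 TPM in all 4 libraries and higher in 1, with a median of -1.04. Of the 23 listed, 11 met the level rule. Jak2 (chr19:29251828-29313080), a kinase of cytokine receptors, had 9.65 and 10.01 TPM in MSH2KO21B, against 23.2 and 24.2 TPM in MECPK (-1.38, SE 0.07, limma adjusted p = 9.2e-05). Cd274, which encodes PD-L1 and lies nearby, had 0.90 and 1.53 TPM in MSH2KO21B, against 1.25 and 1.14 TPM in MECPK, and was not called (-0.19, limma adjusted p = 0.321). The values of the lines overlapped. With quantile normalization (-0.63, limma adjusted p = 0.0255) and without MSH2KO21B replicate 2 (-0.39, limma adjusted p = 0.026) it was called lower. The adaptor gene Blnk had 1.41 and 1.85 TPM in MSH2KO21B, against 69.3 and 70.2 TPM in MECPK (-4.95). The alarmin gene Il33 had 17.6 and 19.9 TPM in MSH2KO21B, against 1.47 and 1.76 TPM in MECPK (2.72). Ifit2, an interferon-stimulated gene, had 10.4 and 19.4 TPM in MSH2KO21B, against 0.04 and 0.02 TPM in MECPK, and its MSH2KO21B libraries were far apart. Fas, a death receptor gene, did not reach the level rule, with 2.40 and 0.46 TPM in MSH2KO21B and 0.40 and 0.76 TPM in MECPK.

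Genes of epithelial adhesion and the cytoskeleton spread most. Of 20 members at 1 TPM in all 4 libraries, 13 were called lower and 6 higher, with a median of -1.34. The interquartile range over all 23 members was 2.93. Col17a1 (chr19:47646344-47692094), the transmembrane collagen of hemidesmosomes, had 680 and 671 TPM in MSH2KO21B, against 0.17 and 0.18 TPM in MECPK (8.97). Ankrd1 (chr19:36111961-36120099), a nuclear ankyrin-repeat protein and a common readout of YAP activity, had 0.24 and 0.48 TPM in MSH2KO21B, against 416 and 426 TPM in MECPK (-8.48). Each of the 2 reached 1 TPM in 1 line alone, so no test is given. Cst6, a secreted protease inhibitor, had 19.3 and 16.6 TPM in MSH2KO21B, against 656 and 694 TPM in MECPK (-5.35, SE 0.08, limma adjusted p = 7.3e-06). Pdlim1, which links actin to signalling proteins, had 718 and 703 TPM in MSH2KO21B, against 81.5 and 99.6 TPM in MECPK (2.77, SE 0.10, limma adjusted p = 4.8e-05). Anxa1, a phospholipid-binding protein and the most abundant member of its interval, had 724 and 703 TPM in MSH2KO21B, against 2074 and 1879 TPM in MECPK (-1.66). The smooth muscle actin gene Acta2 was at 14.9 and 16.9 TPM in MSH2KO21B, against 0.12 and 0.12 TPM in MECPK. Its neighbour Stambpl1, a deubiquitinase gene, was at 2.23 and 2.37 TPM in MSH2KO21B, against 59.7 and 67.4 TPM in MECPK (-4.48). Acta2 is a member through MSH2KO21B alone, so the level rule fixed its direction and no test of it is given. These adjacent genes thus differed in opposite directions.

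**Figure D5:**
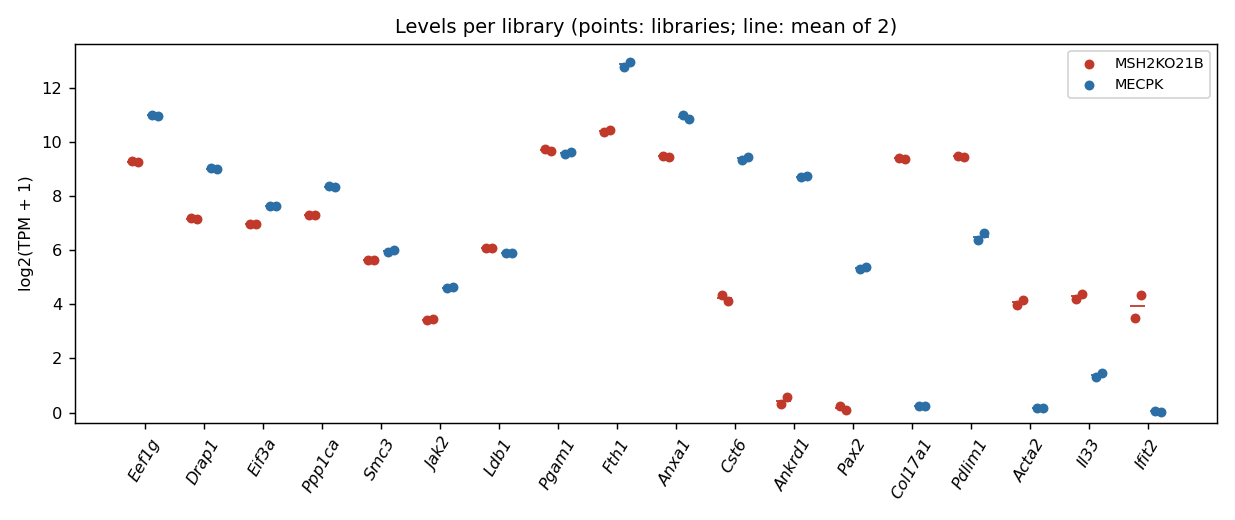
Level of 18 members per library on the log2(TPM + 1) scale, with MSH2KO21B (red) left of MECPK (blue) for each gene. Points are libraries and lines are means of 2, as deposited and not relative to the median. The 6 genes from Eef1g to Jak2 are lower in MSH2KO21B, with differences of -0.32 to -1.85 on this scale. Ldb1 (0.19) and Pgam1 (0.10) are nearly level, and Ankrd1 and Col17a1 lie at opposite extremes.

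Only 12 of 31 listed genes of development reached the level rule. Of 8 at 1 TPM in all 4 libraries, 4 were called lower and 3 higher, with a median of -0.32. Over all 12 the median was -0.67. Pax2, a transcription factor of the developing kidney and reproductive tract, had 0.19 and 0.07 TPM in MSH2KO21B, against 38.8 and 41.0 TPM in MECPK. Hhex, a homeobox factor, had 0.18 and 0 TPM in MSH2KO21B, against 5.64 and 5.60 TPM in MECPK. Both were at 1 TPM or more in MECPK alone. The homeobox gene Emx2 (-1.80) and the candidate tumour suppressor gene Lzts2 (-1.94) were lower. Tcf7l2, a transcription factor of the Wnt pathway, was higher, with 9.71 and 10.4 TPM in MSH2KO21B, against 5.21 and 5.28 TPM in MECPK (0.63, SE 0.08, limma adjusted p = 0.0017). The Krüppel-like factor gene Klf9 (1.03) and the chromatin remodeller gene Smarca2 (0.44) were higher too.

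Lipid genes divided, with 7 of 13 members at 1 TPM in all 4 libraries called lower and 4 higher. The median was -0.72 over these and over all 15, and over the 15 it was -0.41 without MECPK replicate 1. Scd2, a desaturase that makes monounsaturated fatty acids, had 159 and 165 TPM in MSH2KO21B, against 956 and 769 TPM in MECPK (-2.59, SE 0.11, limma adjusted p = 7.3e-05). Its relative Scd1 differed by -0.72. Chka, which encodes choline kinase, differed by -2.77, and the ceramidase gene Asah2 reached 1 TPM in MECPK alone. The lipoprotein receptor gene Vldlr had 17.2 and 13.7 TPM in MSH2KO21B, against 2.14 and 1.97 TPM in MECPK (2.23). The desaturase genes Fads1, Fads2 and Fads3 lie side by side. Fads2 was lower in MSH2KO21B (-1.60), while Fads1 (0.32) and Fads3 (0.46) were higher.

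Genes of redox, detoxification and amino acid synthesis had 6 members at 1 TPM in all 4 libraries, of which 4 were called lower and 1 higher, with a median of -1.13. Over all 9 members the median was 0.09, and it was -0.19 after quantile normalization. Papss2 and Gstp2 are members through the MSH2KO21B libraries alone. Fth1, the heavy chain of the iron store ferritin, was the most abundant member from 5 to 10 Mb, with 1323 and 1396 TPM in MSH2KO21B, against 6967 and 8111 TPM in MECPK (-2.66, SE 0.09, limma adjusted p = 3.8e-05). The copper chaperone gene Ccs differed by -1.74. The glutathione transferase gene Gsto1 had 485 and 474 TPM in MSH2KO21B, against 256 and 241 TPM in MECPK (0.75). Papss2, which makes the sulfate donor of the cell, was at 11.1 and 12.5 TPM in MSH2KO21B, against 0.04 and 0.04 TPM in MECPK. The near-copies Gstp1 (-1.18) and Gstp2 (0.84) differed in sign, and their reads may have been divided between them.

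The remaining 239 members, on no list, had a median of -0.88. The glycosyltransferase gene Gcnt1 (0.05 and 0.04 TPM in MSH2KO21B, against 61.0 and 59.4 TPM in MECPK), the lipase gene Dagla and the lipid kinase gene Pip5k1b reached 1 TPM in MECPK alone. Pcgf5, a Polycomb subunit gene, differed by -3.91. Among higher genes, the channel gene Calhm2 was at 24.8 and 24.3 TPM in MSH2KO21B, against 0.03 and 0 TPM in MECPK. The corepressor gene Rcor2 (2.89) and the receptor auxiliary gene Cnih2 (2.98) were also higher.

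The most abundant member of each 5 Mb interval reached 1 TPM in all 4 libraries in 12 of 13 intervals. Of these 12, 11 were called lower in MSH2KO21B. Among all chromosome 19 members at that level 290 of 358 were called lower. Genome-wide 37.7% of all genes tested were, a set that includes genes at 1 TPM in 1 line alone. In the interval from 35 to 40 Mb it was Ankrd1, which is a member through MECPK alone. Besides genes given above, these were Tmem258 (-1.09), Psat1 (-1.09), Plgrkt (-0.74), Atad1 (-0.50), Usmg5 (-0.66), Xpnpep1 (-0.89) and Rps12-ps3 (-0.87). The Usmg5 call was lost without MSH2KO21B replicate 2 (-0.60, limma adjusted p = 0.0598). The glycolytic gene Pgam1 was the exception, with 855 and 816 TPM in MSH2KO21B, against 756 and 805 TPM in MECPK (-0.10, limma adjusted p = 0.184). Fth1, Eef1g, Pgam1 and Rps12-ps3 have close copies in the genome, so their values are less certain. Rps12-ps3 carries the symbol of an Rps12 pseudogene, although the annotation used lists it as protein-coding. Nearest to the median of all coding genes among members at 50 TPM or more in every library, were Ldb1 (-0.0039), Kdm2a (-0.01), Trub1 (0.02), Ablim1 (-0.07) and Cep55 (-0.08). Ldb1, a cofactor of LIM transcription factors, had 66.6 and 67.3 TPM in MSH2KO21B, against 58.4 and 58.7 TPM in MECPK, beside Pprc1 at -1.04, with which it lies head to head. As deposited, Ldb1 (0.19, limma adjusted p = 0.0165) and Trub1 (0.21, limma adjusted p = 0.0183) were called higher.

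Both lines expressed epithelial genes, as the label of an endometrial cancer line implies. Epcam had 114 and 110 TPM in MSH2KO21B, against 442 and 446 TPM in MECPK, and Cdh1 167 and 165 TPM in MSH2KO21B, against 100.3 and 99.5 TPM in MECPK. The keratin genes Krt8, Krt18 and Krt7 were lower in MSH2KO21B and Krt5 and Krt14 higher (3810 to 3888 and 3316 to 3321 TPM in MSH2KO21B, against 0.68 to 1.10 and 1.86 to 1.88 TPM in MECPK). Of the mesenchymal markers, Vim was at 522 and 532 TPM in MSH2KO21B, against 1.93 and 1.54 TPM in MECPK. The others were low in both lines. Col1a1 had 0.59 and 0.38 TPM in MSH2KO21B, against 0.25 and 0.29 TPM in MECPK. Col1a2 had 0.15 and 0.13 TPM in MSH2KO21B, against 0.10 and 0.12 TPM in MECPK. Pdgfrb had 0.009 and 0.008 TPM in MSH2KO21B and was listed at 0 in MECPK. The leukocyte marker Ptprc was at most 0.06 TPM and Cd3e was listed at 0 in all 4 libraries, and Cd68 was between 2.47 and 3.65 TPM. The endothelial markers Pecam1 and Cdh5 were at 0.61 to 1.48 TPM in MSH2KO21B and at most 0.03 TPM in MECPK. The part of these marker differences in the chromosome 19 result was not tested.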

How the data were processed

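RNA was measured in 4 libraries of 2 cell lines. The authors deposited TPM per transcript and used kallisto 0.43.1 with the build GRCm38, per the submitters' processing notes; the transcript set, the strand setting and the depth were not found in those notes or the labels. TPM keeps no depth, so no counting interval was computed. Of 61440 transcripts, 60503 matched GENCODE M21 by identifier without version, and TPM was summed into 22594 genes. The 937 unmatched transcripts held 0.733% to 0.944% of a library. The test was limma (version 3.58.1, R 4.3.3, trended prior variance), applied to log2(TPM + 1) of genes reaching 1 TPM in 2 or more libraries; this scale understates changes of low genes. The median difference of coding genes was first subtracted from MSH2KO21B. The fit had 2 residual and 2.49 prior degrees of freedom and was tested on simulated data. Members and lists were chosen with earlier results of these data known. Genes were named by rule: the 10 largest differences each way at 10 TPM or more, the most abundant in each 5 Mb interval, 7 fixed genes, up to 3 per list, the 5 nearest to 0 at 50 TPM or more, and those nearest to the level rule. Other genes were chosen after their values were seen. Some genes that the rule names are not reported here. Alternatives varied the pseudocount, filter, centring, scaling, variance model, transcripts, replicate block and libraries.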

Additional observations from a re-analysis of the deposited data

How the results depend on the processing

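The chromosome 19 median of -0.89 stayed below 0 under every alternative run, and all 13 interval medians did too. It was -0.93 with a pseudocount of 0.1, -0.91 with a filter of 10 TPM, -0.86 with the fit and its centring redone on genes at 1 TPM in all 4 libraries, -0.85 after quantile normalization and -0.70 as deposited. Unfiltered, over 570 genes, it was -0.39; the cause was not tested. Leaving out 1 library at a time gave -0.92 to -0.89. These are set against a replicate SD of 0.0172. Members called higher numbered 84 with no filter, 29 with a filter of 10 TPM and 31 in that refit, where fewer genes were tested; in the reported fit the 358 members at that level had a median of -0.91 and 30 called higher. Total calls were 332 to 359 without 1 library. The replicate numbers do not pair libraries in the labels, and deviations of same-numbered libraries correlated at 0.0161; with the replicate block 365 members were called, 312 lower and 53 higher. Of 61 named genes, 44 could be tested under all 14 alternatives, and 41 of these kept their direction and call. The other 17 fell below a stricter filter at least once, and 15 kept theirs where tested; Ldb1 was at 0.19 as deposited and then called higher, and calls of Trub1, Cd274, Usmg5 and Lrrn4cl also depended on the setting. Unknown depth limits what can be said of genes below 1 TPM.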
